A study of Rattus norvegicus with 60 samples.

Results

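Permethrin is a pyrethroid insecticide without an α-cyano group, and the comparison described here sets rats given 100 mg/kg against rats given 1 mg/kg of it. Its members are the 16 arrays labelled with these doses, 8 rats at 100 mg/kg and 8 at 1 mg/kg, of 60 arrays in the series. No vehicle rat enters the difference. All were adult male Long-Evans rats of postnatal day 62 to 64 that received 1 oral gavage in 1 mL/kg corn oil, and frontal cortex was taken 6 h later. Further rats of the series received permethrin at 10 mg/kg (8 rats) or corn oil alone as vehicle (12 rats). Others received deltamethrin, an α-cyano pyrethroid, at 0.3, 1 or 3 mg/kg (8 rats each). These further rats place the values. Their arrays also enter the estimate of spread behind the SE, confidence intervals and p values of the main fit. The deltamethrin rats at 0.3 and 3 mg/kg further serve a comparison of dose steps. The study describes 1 mg/kg permethrin as lying below the dose without an effect on motor activity and 100 mg/kg as a dose that lowers motor activity. The measurements come from Affymetrix rat expression arrays, 1 per rat. The deposited values are levels on the log2 scale for 31042 probe sets, made with the RMA method, and a difference is one of log2 levels.

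Pyrethroids hold voltage-sensitive sodium channels open, which makes neurons more excitable. When neurons fire, calcium entry and kinase signalling switch on immediate early genes, most of which encode transcription factors (Fos, Fosb, Egr1, Egr2, Nr4a1, Nr4a3). Late activity-regulated genes such as the neurotrophin Bdnf follow, and phosphatases such as Dusp6 feed back on the kinase cascade. Serum response factor, one of the regulators of immediate early genes, binds a DNA element known as the CArG box.

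Promoter sequence is shown for the genes of these 3 groups (immediate early, late activity-regulated, MAP kinase feedback) that were higher at 100 mg/kg at an unadjusted p under 0.05 and whose promoter holds a CArG box. Of 11 such genes, 9 had an entry in the RefSeq promoter table (build GRCr8), and 3 of these held a CArG box within 250 bases before the start, against 1.5% of all 33469 promoters of that length. The CArG box was searched by its standard consensus, which reads the same on both strands, and capitals mark each match. The cyclic AMP response element half-site TGACG, on either strand, was present in 5 of the 9 genes and in 18.2% of all promoters. By their letters the motifs cannot overlap each other, and a match is a description of the letters only. A gene was counted if any of its promoter entries matched, whereas the shares over all promoters count single entries. The genes come from groups picked for their regulation by activity, and members that were not higher were not counted. These shares therefore do not bear on the dose. The stretches are Egr1, chr18:26736828-26737077 on the plus strand, Egr2, chr20:21054442-21054691 on the minus strand, and Dusp5, chr1:262543524-262543773 on the plus strand, each 5′ to 3′.
Egr1: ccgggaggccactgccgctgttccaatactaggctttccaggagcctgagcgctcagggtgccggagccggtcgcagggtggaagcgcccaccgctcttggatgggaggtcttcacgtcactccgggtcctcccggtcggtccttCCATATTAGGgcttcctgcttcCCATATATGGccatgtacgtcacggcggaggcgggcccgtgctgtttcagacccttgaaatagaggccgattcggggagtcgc
Egr2: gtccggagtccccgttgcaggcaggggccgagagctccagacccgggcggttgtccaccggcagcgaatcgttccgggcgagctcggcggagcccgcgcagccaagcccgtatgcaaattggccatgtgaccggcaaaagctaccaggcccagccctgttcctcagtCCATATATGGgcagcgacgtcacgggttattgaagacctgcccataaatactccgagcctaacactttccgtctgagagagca
Dusp5: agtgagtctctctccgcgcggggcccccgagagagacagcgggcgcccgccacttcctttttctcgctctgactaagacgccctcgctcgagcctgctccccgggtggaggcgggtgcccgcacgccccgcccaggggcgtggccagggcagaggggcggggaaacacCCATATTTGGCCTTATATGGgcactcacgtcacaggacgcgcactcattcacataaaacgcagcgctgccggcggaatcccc
The Egr1 and Dusp5 stretches held 2 CArG boxes each and the Egr2 stretch 1. In Egr1 they began 105 and 83 bases before the start, in Egr2 83 bases before it, and in Dusp5 82 and 72 bases before it.

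The arrays of both groups covered the same range. The array medians lay between 7.08 and 7.19 at 100 mg/kg and between 7.07 and 7.19 at 1 mg/kg, and arrays correlated with r of 0.947 to 0.997 within the 100 mg/kg group and 0.926 to 0.997 within the 1 mg/kg group. The first principal component held 58% of the variance. A split of all arrays into 2 groups on the first 2 components, made without the dose, set 14 arrays (array group 2) apart from 46. Array group 2 held 2 rats of each permethrin group compared here, replicates 2 and 3 at 100 mg/kg and replicates 1 and 2 at 1 mg/kg. All 14 had replicate numbers 1 to 3 (in vehicle rats 1 to 6). Numbers 1 to 3 and 4 to 8 match in size the 2 exposure cohorts of the study, but the labels name no cohort. Some results are given with and without array group 2. For the other named probe sets only the direction without it is covered, in the closing section. Cortical neuron markers were present: the glutamate transporter gene Slc17a7 averaged a log2 level of 12.41 at 100 mg/kg and 12.37 at 1 mg/kg, and Gad1, the enzyme that makes GABA, 11.97 and 11.81.

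At an adjusted p under 0.05 (limma, 1 fit of all arrays, Benjamini-Hochberg adjustment over all probe sets), 1 probe set of 31042 differed between 100 and 1 mg/kg, or 0.00322%. At an unadjusted p under 0.05, 241 probe sets were higher at 100 mg/kg (0.776%) and 95 were lower (0.306%), so that 71.7% of these 336 were higher. If no probe set differed, a fraction of about 0.05 would be expected under this threshold, and these shares together lie below it. The counts alone therefore do not show a response. With array group as a block they were 501 and 261. Without array group 2 the counts were 201 higher (0.648%) and 217 lower (0.699%), and 48.1% were higher. The median difference over all probe sets was 0.0072 on the log2 scale, and 54.8% of them had a positive difference. Differences were small: 20 probe sets exceeded 0.5 upward, 7 exceeded 0.5 downward, and 1 exceeded 1 in either direction. The 95% confidence interval of a difference reached 0.18 to either side of it at the median probe set. The plot of all probe sets shows how few stand away from the rest.

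**Figure D1:**
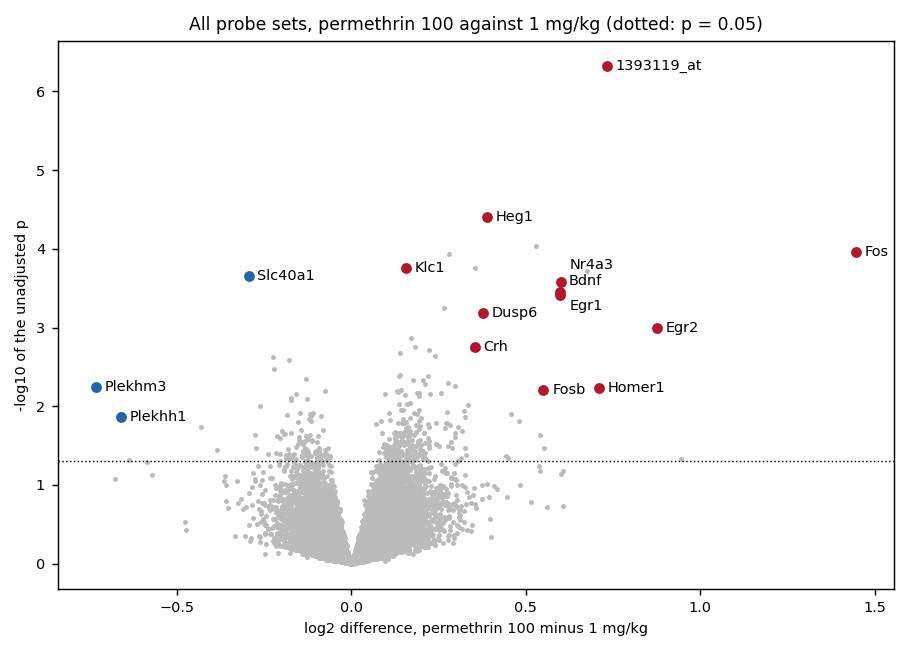
Each point is 1 of 31042 probe sets, with the log2 difference between permethrin 100 and 1 mg/kg on the x axis (positive is higher at 100 mg/kg) and -log10 of the unadjusted limma p on the y axis. The dotted line is at p = 0.05. Probe set 1393119_at has the lowest p and Fos the highest difference (1.45).

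The probe set that rose, 1393119_at, has no gene symbol in the annotation used. Its log2 level in the 8 rats at 100 mg/kg ran from 8.48 through a median of 9.01 to 9.80, and in the 8 rats at 1 mg/kg from 7.99 through 8.28 to 8.55. In 7 of the 8 rats at 100 mg/kg it was above every rat at 1 mg/kg, and the groups overlapped only at the lowest rat of 100 mg/kg. The difference was 0.73 ± 0.13 (SE), a 1.66-fold higher level, with an adjusted p of 0.0146. The exact two-sided permutation test over the 16 arrays gave an unadjusted p of 0.000311, for a probe set picked by its low p on these arrays. By dose, 1393119_at averaged 8.44 ± 0.25 in vehicle rats (SD, n = 12), 8.26 ± 0.18 at 1 mg/kg, 8.43 ± 0.18 at 10 mg/kg and 8.99 ± 0.43 at 100 mg/kg (SD, n = 8 each). The difference from 10 mg/kg was 0.56, and that of 10 from 1 mg/kg was 0.17.
The call on 1393119_at depended on the arrays in the fit. With only the 16 arrays in the fit its adjusted p was 1, and without array group 2, where 6 rats per group remained, the difference was 0.76 and the adjusted p 0.137. Leaving out 1 array at a time lost the call for 5 of the 16 arrays, replicates 2, 7 and 8 at 100 mg/kg and replicates 2 and 3 at 1 mg/kg, with adjusted p values up to 0.114. Over all 16 such fits the difference was 0.62 to 0.81.

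A single probe set separated the groups without overlap, 1374610_at, which again has no gene symbol and was picked out after its values were seen. Its levels were 6.93 to 7.45 (median 7.04) at 100 mg/kg and 6.71 to 6.92 (median 6.86) at 1 mg/kg. The share of probe sets without overlap was 0.00322% in this direction and 0% with 100 mg/kg below. The difference of 0.27 ± 0.073 (SE) had an adjusted p of 1.

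Among probe sets with a gene symbol, none passed the adjusted threshold, and those of lowest p are described here as values that missed it. The exact permutation p values given for them are unadjusted and come from the same arrays on which the probe sets were picked. They are therefore not independent evidence of a response. Heg1, a transmembrane protein at the junctions of endothelial cells, had the lowest limma p among probe sets with a gene symbol. Both Heg1 probe sets pointed the same way. By 1373415_at its level was 9.26 to 9.85 (median 9.61) at 100 mg/kg and 8.81 to 9.41 (median 9.24) at 1 mg/kg. The difference was 0.39 ± 0.087 (SE), with an adjusted p of 0.618 and an exact permutation p of 0.00249. By the second probe set, 1391901_at, Heg1 was 8.15 to 8.91 (median 8.25) at 100 mg/kg and 7.80 to 8.18 (median 7.97) at 1 mg/kg, a difference of 0.35 with an adjusted p of 0.738. By 1373415_at 6 of the 8 rats at 100 mg/kg were above every rat at 1 mg/kg, and by 1391901_at 7 of 8. At 10 mg/kg Heg1 lay between the doses by 1373415_at, with a mean of 9.41 ± 0.09 (SD, n = 8) against 9.28 ± 0.15 in vehicle rats (SD, n = 12). Without array group 2 the differences were 0.40 and 0.30.

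Fos, which encodes a subunit of the transcription factor AP-1, had the largest difference of any probe set. By 1375043_at its level was 6.89 to 9.24 (median 7.88) in rats at 100 mg/kg and 5.49 to 7.15 (median 6.37) in rats at 1 mg/kg. In 6 of the 8 rats at 100 mg/kg Fos was above every rat at 1 mg/kg. The difference was 1.45 ± 0.35 (SE), a 2.73-fold higher level, with a 95% confidence interval of 0.75 to 2.14, an adjusted p of 0.714 and an exact permutation p of 0.000777. Without array group 2 it was 1.25. The second Fos probe set, 1371283_at, showed no such pattern: its levels were 7.03 to 7.53 at 100 mg/kg and 6.96 to 7.68 at 1 mg/kg, and the difference of -0.01 had a 95% confidence interval of -0.19 to 0.17. The 2 probe sets thus disagree, and the gene lists below carry Fos by the second, brighter one.

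Egr1, a zinc finger transcription factor, was 11.21 to 11.97 (median 11.68) at 100 mg/kg and 10.90 to 11.24 (median 11.04) at 1 mg/kg. Only the lowest rat at 100 mg/kg lay within the range of the 1 mg/kg rats. The difference was 0.60 ± 0.16 (SE), with an adjusted p of 1 and an exact permutation p of 0.000311, and 0.54 without array group 2. By dose, the SD of Egr1 was 0.37 in vehicle rats (n = 12), 0.11 at 1 mg/kg, 0.38 at 10 mg/kg and 0.28 at 100 mg/kg (n = 8 each). Its relative Egr2 was 5.57 to 8.11 (median 6.34) at 100 mg/kg and 5.43 to 5.88 (median 5.63) at 1 mg/kg. Rats at 100 mg/kg fell into some near the 1 mg/kg level and some far above it, with 5 of 8 above every rat at 1 mg/kg. The difference was 0.88 ± 0.25 (SE), with an adjusted p of 1 and an exact permutation p of 0.00715. A second Egr2 probe set, 1398266_a_at, had 5.67 to 6.34 at 100 mg/kg and 5.69 to 6.10 at 1 mg/kg, and its difference of 0.11 had an unadjusted p of 0.283, so the 2 Egr2 probe sets disagree in size. The Egr1 and Egr2 promoters are those printed above with CArG boxes.

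**Figure D2:**
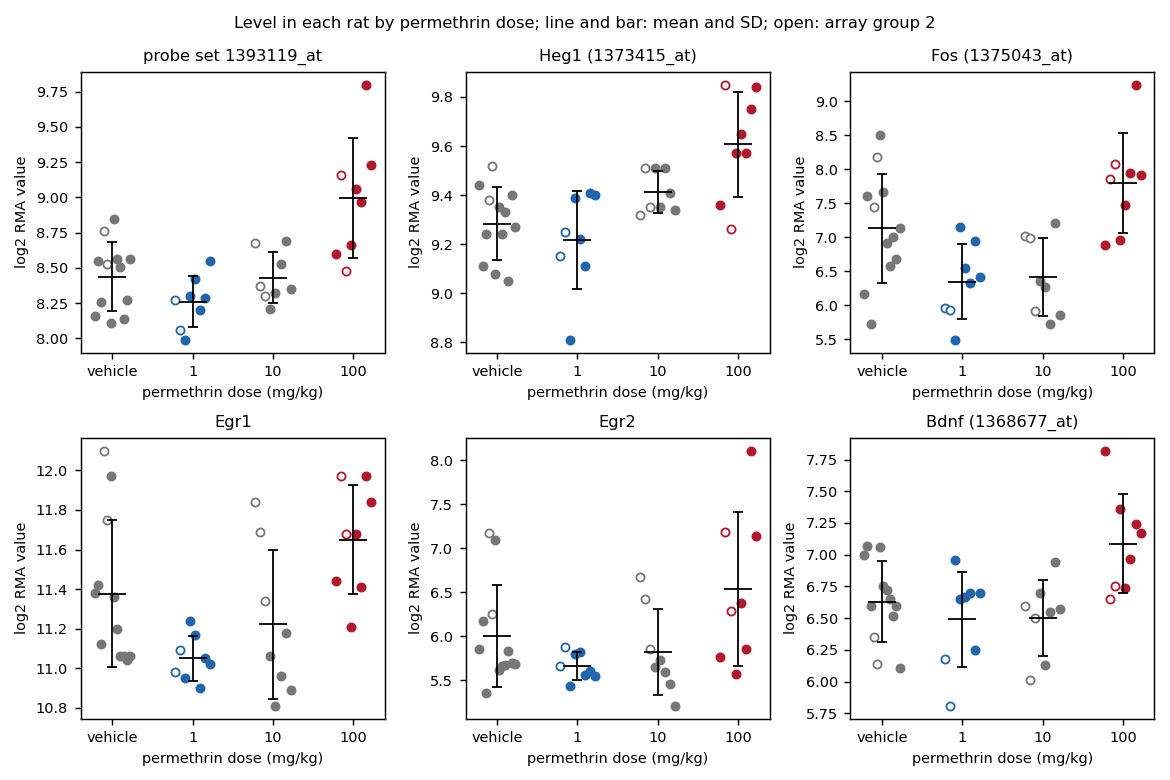
The log2 RMA level of 6 probe sets (y axis) in each rat by permethrin dose in mg/kg (x axis), with vehicle at the low end; points are rats, the line and bar are the mean and SD, and open points belong to array group 2. For 1393119_at, Fos and Egr1 the 100 mg/kg rats sit above most rats at 1 mg/kg (Fos medians of 7.88 and 6.37).

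The orphan nuclear receptor gene Nr4a3 had 2 probe sets among the lowest p values. By 1369067_at it was 7.41 to 8.52 (median 7.85) at 100 mg/kg and 6.84 to 7.75 (median 7.28) at 1 mg/kg, a difference of 0.60 ± 0.15 (SE) with an adjusted p of 0.831. By 1393389_at the difference was 0.28 with an adjusted p of 0.714, and by another probe set, 1369217_at, the levels of Nr4a3 nearly coincided (6.06 ± 0.17 at 100 mg/kg and 6.05 ± 0.15 at 1 mg/kg, SD, n = 8 each). Its relative Nr4a1 was 8.97 to 10.24 (median 9.34) at 100 mg/kg and 8.56 to 9.28 (median 9.03) at 1 mg/kg, a difference of 0.48 with an exact permutation p of 0.00559. Fosb, another AP-1 subunit, averaged 7.27 ± 0.49 (SD, n = 8) at 100 mg/kg, against a mean of 6.72 ± 0.45 (SD, n = 8) at 1 mg/kg. Its difference was 0.55 over all rats, but 0.04 among replicate numbers 1 to 3 and 0.86 among numbers 4 to 8.
Arc, a cytoskeleton-associated protein of synapses, was named after its values were seen and had 8.62 to 10.60 (median 9.17) at 100 mg/kg and 8.20 to 9.14 (median 8.79) at 1 mg/kg. The difference of 0.54 had an unadjusted p of 0.067 and an exact permutation p of 0.0207.

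Among late activity-regulated genes, Bdnf and Crh had the lowest p. Bdnf by 1368677_at was 6.65 to 7.82 (median 7.07) at 100 mg/kg and 5.81 to 6.96 (median 6.66) at 1 mg/kg. The difference was 0.60 ± 0.16 (SE), with an adjusted p of 0.994 and an exact permutation p of 0.00466, and 0.56 without array group 2. By its second probe set, 1368678_at, the difference was 0.06 with an unadjusted p of 0.183. Crh, the corticotropin-releasing hormone, was 7.07 to 7.67 (median 7.41) at 100 mg/kg and 6.62 to 7.29 (median 7.03) at 1 mg/kg, a difference of 0.35 ± 0.11 (SE) with an adjusted p of 1 and an exact permutation p of 0.00544. It was above every rat at 1 mg/kg in 5 of 8 rats at 100 mg/kg.
Homer1, a postsynaptic scaffold with an activity-induced short form, is named although it lies outside the naming rule, because its 1370454_at had one of the larger differences. It was 8.96 to 10.90 (median 10.47) at 100 mg/kg and 8.51 to 9.99 (median 9.67) at 1 mg/kg, a difference of 0.71 with an exact permutation p of 0.0437. The 2 lowest rats of each group were those of array group 2, and without that group the difference was 0.80 with an unadjusted p of 0.000158. The probe set was picked for its size, and the fit without array group 2 was chosen after seeing the data. Neither p can therefore be read as evidence of a response. The other 4 Homer1 probe sets had differences of 0.23 to 0.54. The brightest of them, which enters the gene lists below, had 0.28 over all rats with an unadjusted limma p of 0.337.

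**Figure D3:**
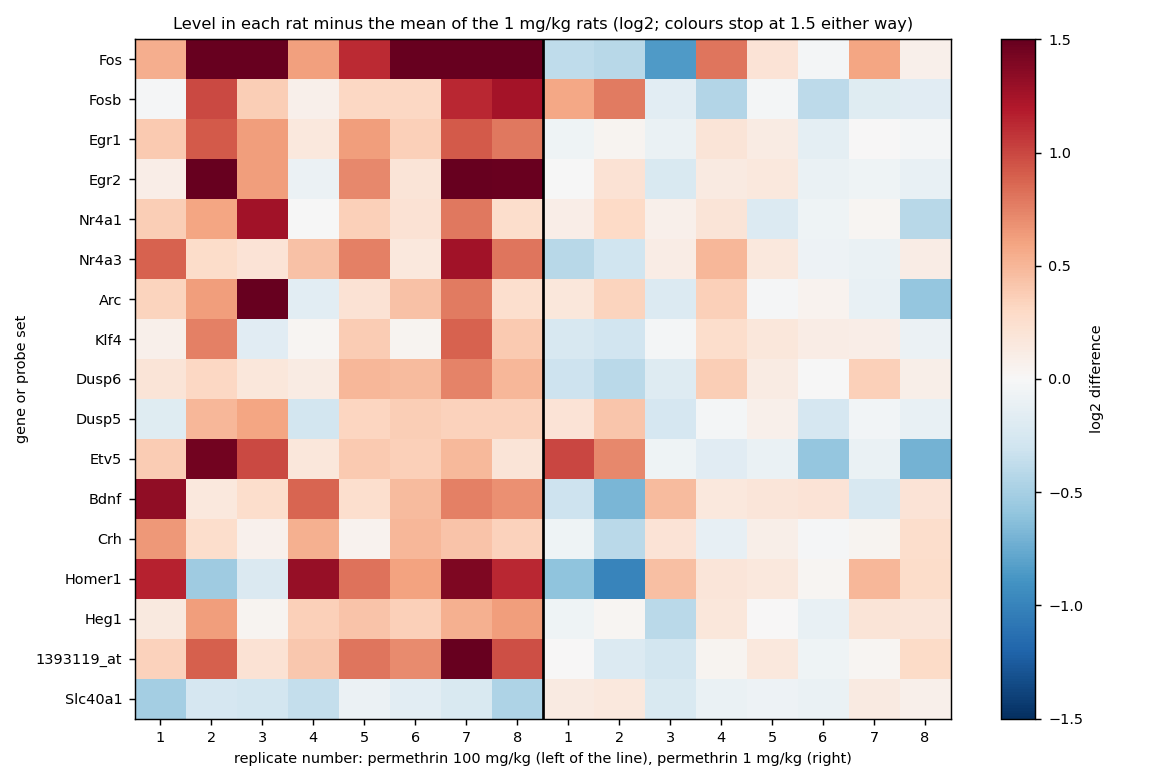
Rows are genes or probe sets and columns are the 16 rats by replicate number, 100 mg/kg left of the line and 1 mg/kg right of it; colour is the log2 level minus the mean of the 1 mg/kg rats, with colours stopping at 1.5. Replicate 7 at 100 mg/kg carries the highest levels of 1393119_at (9.80), Fos (9.24) and Egr2 (8.11), and Homer1 is low in replicates 2 and 3 at 100 mg/kg.

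The MAP kinase feedback genes past the unadjusted threshold were Dusp6, Dusp5 and Etv5. Dusp6, a phosphatase that inactivates ERK, was 9.51 to 10.13 (median 9.78) at 100 mg/kg and 8.98 to 9.75 (median 9.42) at 1 mg/kg by 1387024_at, a difference of 0.38 ± 0.10 (SE) with an adjusted p of 1 and an exact permutation p of 0.0109. Its other probe sets, 1377064_at and 1382778_at, differed by 0.44 and 0.24, and the first of these by 0.29 without replicate 2 at 1 mg/kg. Dusp5, a nuclear ERK phosphatase whose promoter is printed above, averaged 6.94 ± 0.31 at 100 mg/kg and 6.69 ± 0.23 at 1 mg/kg (SD, n = 8 each). Its groups overlapped, with 2 rats at 100 mg/kg above every rat at 1 mg/kg and 1 below every one, and the difference was 0.25. The ETS factor gene Etv5 was 9.11 to 10.38 (median 9.32) at 100 mg/kg and 8.23 to 9.94 (median 8.83) at 1 mg/kg, a difference of 0.55 with an unadjusted p of 0.0338 and 1 of 8 rats above every rat at 1 mg/kg.

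The probe sets of this paragraph had positive differences and did not pass the adjusted threshold. Their differences over all rats were 0.24 or less. Klc1, a kinesin light chain, was 12.79 to 12.92 (median 12.86) at 100 mg/kg and 12.43 to 12.82 (median 12.73) at 1 mg/kg. Its difference was 0.16, and it was 0.28 among replicate numbers 1 to 3 and 0.08 among numbers 4 to 8. Clta, a clathrin light chain, differed by 0.14 over all rats, 0.35 among numbers 1 to 3 and 0.02 among numbers 4 to 8. Sirpa, a membrane receptor for Cd47, differed by 0.18 over all rats, 0.35 among numbers 1 to 3 and 0.08 among numbers 4 to 8, and the kinase Sik2 by 0.24, 0.39 and 0.15. For Klc1, Clta, Sirpa and Sik2 the difference within array group 1 (0.08, 0.03, 0.09 and 0.18) was also under that over all rats. Array group 1 is a different split from numbers 4 to 8. It also holds replicate 1 at 100 mg/kg and replicate 3 at 1 mg/kg. Dync1i1, a dynein intermediate chain, was 11.19 to 11.44 (median 11.29) at 100 mg/kg and 11.03 to 11.22 (median 11.15) at 1 mg/kg, a difference of 0.17 that was 0.13 without array group 2. Rimbp2, a presynaptic scaffold, averaged 10.83 ± 0.09 at 100 mg/kg and 10.64 ± 0.09 at 1 mg/kg (SD, n = 8 each) by 1395991_at. Its limma adjusted p was 1 and its exact permutation p, which is unadjusted, was 0.000622. Rimbp2 has another probe set, 1371020_at, which is not described here.

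In the other direction no gene passed the adjusted threshold either. Slc40a1, ferroportin, which exports iron from cells, had the lowest p. By 1390412_at it was 6.78 to 7.20 (median 7.03) at 100 mg/kg and 7.07 to 7.45 (median 7.29) at 1 mg/kg. The difference was -0.29 ± 0.074 (SE), with an adjusted p of 0.769, an exact permutation p of 0.00124 and -0.25 without array group 2. A brighter Slc40a1 probe set, 1387130_at, differed by -0.14. Plekhm3 and Plekhh1 encode proteins with pleckstrin homology domains, and each gave different values in the 2 sets of replicate numbers. Plekhm3 was 5.88 to 7.09 (median 6.63) at 100 mg/kg and 6.75 to 8.40 (median 7.14) at 1 mg/kg, with a difference of -0.73 that was -1.45 among numbers 1 to 3 and -0.30 among numbers 4 to 8. Plekhh1 was 6.32 to 7.46 (median 6.70) at 100 mg/kg and 6.51 to 8.00 (median 7.63) at 1 mg/kg.
The difference of Plekhh1 was -0.66 with an adjusted p of 1 over all rats. Among replicate numbers 4 to 8, with 5 rats per dose, the difference was -1.16, and among numbers 1 to 3 it was 0.17. A limma fit of the 10 arrays of numbers 4 to 8 gave Plekhh1 an adjusted p of 0.000668. That subset was chosen after seeing the data, and 2 of 31042 probe sets passed the threshold in it. Whether the 2 sets differ from each other in Plekhh1 was not tested. Sema6a, a transmembrane semaphorin, and the ephrin receptor Epha7 differed by -0.16 and -0.15.

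The vehicle and 10 mg/kg rats show where each dose stood. The comparisons with vehicle share the same 12 vehicle rats, and each shares its dosed rats with the comparison above, so only their own values are given. For Fos by 1375043_at, vehicle rats had a median of 7.07 and a mean of 7.13 ± 0.80 (SD, n = 12), between the means of both doses, and 10 mg/kg rats averaged 6.41 ± 0.58 (SD, n = 8). Its difference from vehicle was 0.66 at 100 mg/kg and -0.79 at 1 mg/kg. Egr1 differed from vehicle by 0.27 at 100 mg/kg and by -0.33 at 1 mg/kg, and Nr4a3 (1369067_at) by 0.26 and -0.34. Nr4a1 and Arc were near vehicle at 100 mg/kg (-0.03 and -0.06), and their differences from vehicle at 1 mg/kg were -0.51 and -0.60. Bdnf, Crh, Heg1 and 1393119_at had the other pattern, 0.46, 0.39, 0.32 and 0.56 above vehicle at 100 mg/kg and -0.14, 0.04, -0.07 and -0.18 from vehicle at 1 mg/kg. Between 10 and 1 mg/kg, Fos differed by 0.07, Bdnf by 0.01 and Homer1 (1370454_at) by -0.02, while Klc1 and Sik2 differed by 0.15 and 0.25 in that step and by 0.01 and -0.01 between 100 and 10 mg/kg.

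**Figure D4:**
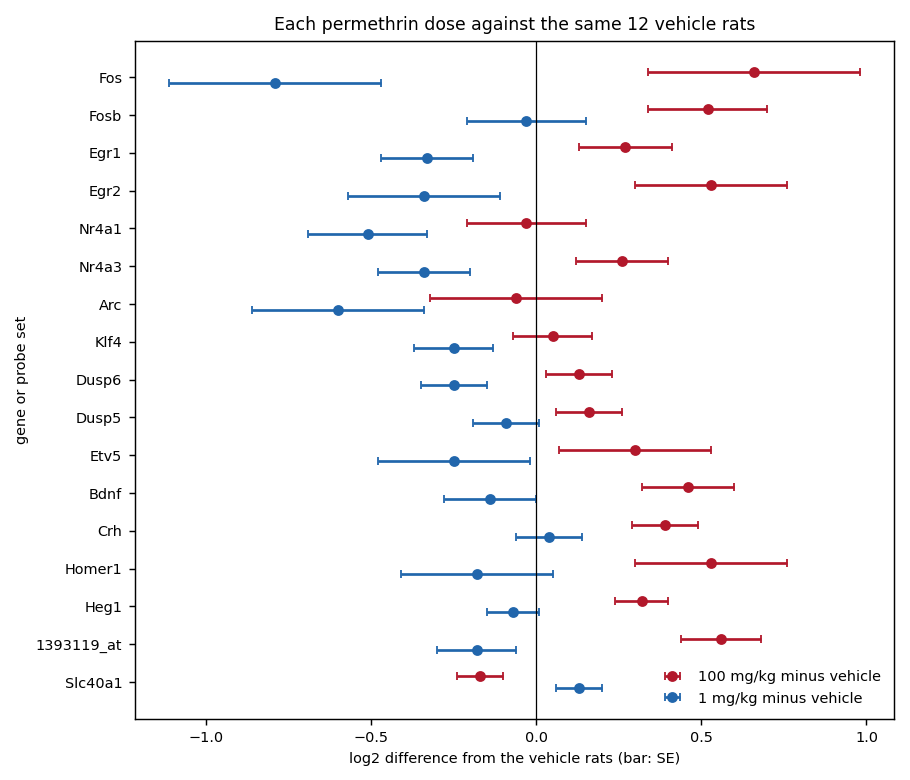
Log2 differences from the 12 vehicle rats (x axis) for 17 genes or probe sets (y axis), with 100 mg/kg in red and 1 mg/kg in blue; bars are SE from limma, and both doses share the vehicle rats. Fos lies at 0.66 and -0.79, whereas Nr4a1 and Arc lie near 0 at 100 mg/kg and at -0.51 and -0.60 at 1 mg/kg.

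Gene lists were described with each gene entered by its brightest probe set. Over all 14217 genes, 152 were higher at 100 mg/kg at an unadjusted p under 0.05 (1.07%) and 26 were lower (0.183%), the median difference was 0.011, and 57.2% were positive. Of 35 immediate early genes 33 were measured, 6 of them were higher at that threshold (Nr4a3, Egr1, Egr2, Fosb, Nr4a1 and Klf4) and 0 lower, and 27 were positive with a median of 0.0792. Of 23 late activity-regulated genes 19 were measured, 2 were higher (Bdnf and Crh) and 0 lower, and 18 were positive with a median of 0.152. Of 15 MAP kinase feedback genes 13 were measured, 3 were higher (Dusp6, Dusp5 and Etv5) and 0 lower, and 12 were positive with a median of 0.138. No member of any list passed the adjusted threshold. With array group 2 left out, 105 of all genes were higher (0.739%) and 88 lower (0.619%), and the counts of higher genes were 8 immediate early, 4 late and 5 MAP kinase feedback genes, with 0 lower in each, and the medians were 0.0753, 0.124 and 0.0956. Fos, Egr1, Nr4a3, Bdnf, Crh and Dusp6 were chosen by the study on these same arrays, so the lists are not independent evidence of a direction. In other rats measured by qRT-PCR, the study saw Fos and Egr1 unchanged over the permethrin doses against vehicle, and Bdnf unaffected. By its group means there, Fos was lower at 100 than at 1 mg/kg, and Egr1 was nearly equal. Its qRT-PCR time course, in further rats, describes Fos and Egr1 as still raised 6 h after 100 mg/kg, against vehicle. Its pairwise tests list a significant effect at 6 h for Egr1 and not for Fos.
Endoplasmic reticulum stress genes were positive in 21 of 24 measured, with a median of 0.0669. The 3 of them past the unadjusted threshold were the stress transcription factor gene Atf4 (0.17), the chaperone Hspa5 (0.28) and the disulphide isomerase Pdia6 (0.17), and without array group 2 the count was 1. Without replicate 2 at 1 mg/kg, which had the lowest Atf4 level, the difference of Atf4 was 0.10. Glucocorticoid-responsive genes had 2 of 22, the repressor Bcl6 (0.22) and the co-chaperone Fkbp5 (0.22), 17 were positive, and the count without array group 2 was 1. Circadian clock genes had 2 of 18, Bhlhe40 (0.54) and Tef (0.17), and 0 without array group 2. The 1 mg/kg replicate 1, in array group 2, had the lowest Bhlhe40 level of its group, 7.15, and without that array the difference of Bhlhe40 was 0.32.
Of the branching and vessel patterning genes 3 of 30 were higher (Heg1, Klf4 and the chemokine Cxcl12), with 15 positive and a median of 0.000595, and 1 without array group 2. Cxcl12 differed by 0.20 by its brightest probe set and by 0.32 by 1388583_at.

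Ion channel and receptor genes are read against the shares over all genes, 1.07% higher and 0.183% lower. Of 14 voltage-sensitive sodium channel genes 12 were measured, 0 were past the unadjusted threshold in either direction and the median difference was -0.0304. The same count of 0 held for 18 calcium channel genes, 13 chloride channel and cotransporter genes, and 32 glutamate and GABA receptor genes, with medians of 0.0232, -0.00985 and -0.00948. Of 38 potassium channel genes 1 was higher, the modulatory subunit gene Kcnv1 (0.17), which was not past the threshold without array group 2 or with each array centred on its median. Calcium/calmodulin-dependent kinases, heat shock proteins, monoamine genes, monocarboxylate transporters, transition metal genes, and cytochrome P450 and carboxylesterase genes had 0 members past it. With array group 2 left out, 1 sodium channel, 1 potassium channel and 1 heat shock gene were lower at that threshold, and 1 calcium/calmodulin-dependent kinase and 1 monocarboxylate transporter gene were higher. In that setting the median difference was -0.0277 for calcium channel and -0.0237 for potassium channel genes, so that both turned negative. The kinase gene Camk1g, by its brightest probe set, was 9.11 to 9.87 (median 9.53) at 100 mg/kg and 9.11 to 10.04 (median 9.25) at 1 mg/kg.

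**Figure D5:**
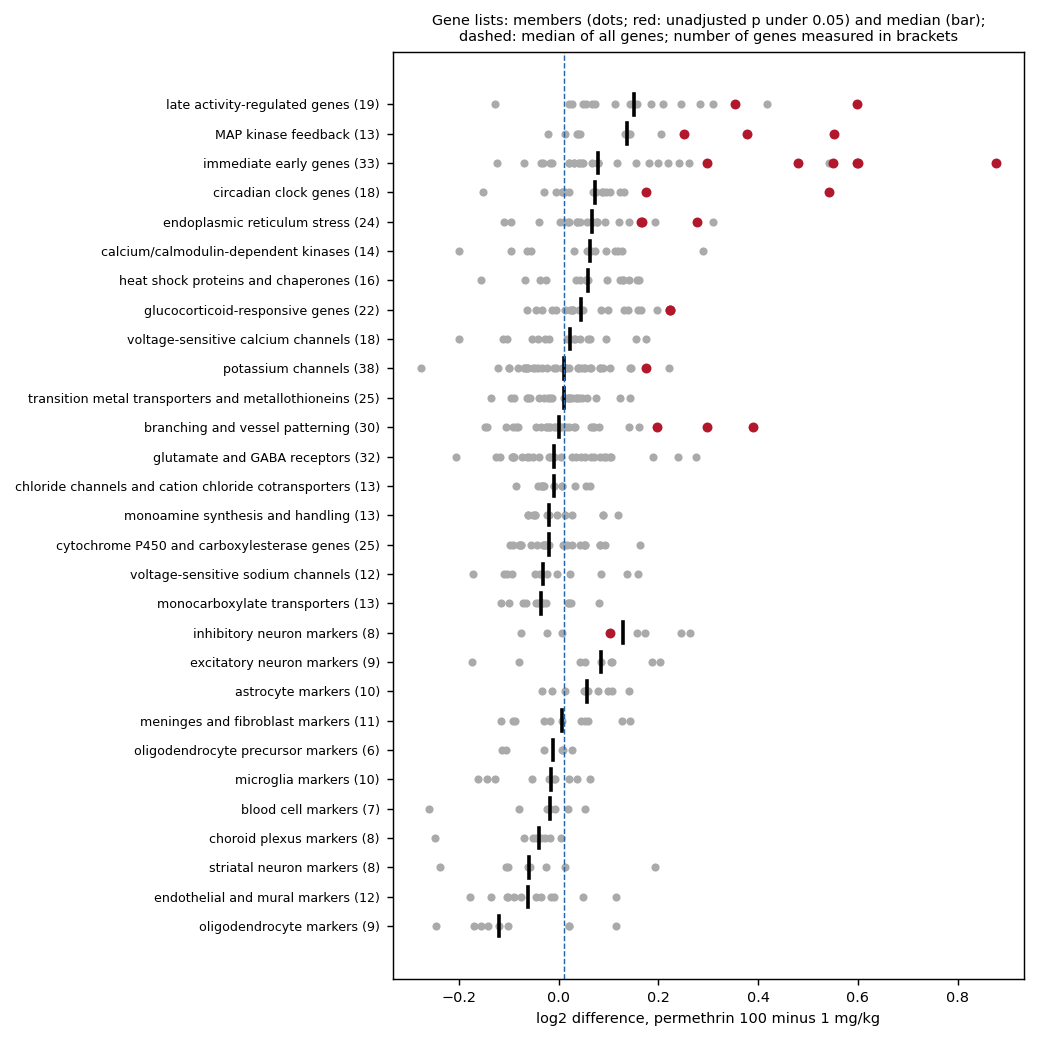
Log2 difference between permethrin 100 and 1 mg/kg (x axis) of the members of 29 gene lists (y axis, number of genes measured in brackets); grey and red dots are genes, red for an unadjusted p under 0.05, bars are list medians and the dashed line is the median of all 14217 genes. Late activity-regulated (0.152) and MAP kinase feedback genes (0.138) have the highest medians, and oligodendrocyte markers the lowest (-0.12).

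Markers of cell types are given as levels. The mean level over 9 oligodendrocyte markers was 10.8 to 11.2 in rats at 100 mg/kg and 10.5 to 11.4 in rats at 1 mg/kg, with a median difference of -0.12 and 3 of 9 positive. Without array group 2, 0 of the 9 were positive, the median was -0.155, and 2 were lower at an unadjusted p under 0.05. Endothelial and mural markers (12 genes) had a median difference of -0.0603 with 2 positive, beside the differences of Heg1 given above, and their mean level was 8.25 to 8.69 at 100 mg/kg and 8.27 to 8.75 at 1 mg/kg. Markers of tissue next to the frontal cortex varied between rats of both groups. The mean level over 8 choroid plexus markers was 6.76 to 7.42 at 100 mg/kg and 6.92 to 7.46 at 1 mg/kg, and that over 8 striatal markers 8.57 to 9.27 at 100 mg/kg and 8.74 to 9.22 at 1 mg/kg. Over 11 meningeal and fibroblast markers it was 8.02 to 8.66 at 100 mg/kg and 8.19 to 8.63 at 1 mg/kg. The part of dissection in the differences was not tested. Inhibitory neuron markers had a median of 0.13 over 8 genes, with 6 positive. Gad2 (-0.023) and Pvalb (-0.075) were negative, and Slc32a1 differed by 0.007. The 1 past the threshold was the peptide gene Cck (0.10), which was not past it without array group 2 or with each array centred. In whole tissue a lower share of a cell type and less RNA per cell cannot be told apart, and the part of cell composition in the differences was not tested.

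The step from 1 to 100 mg/kg permethrin was set against the step from 0.3 to 3 mg/kg deltamethrin, which used other rats. The doses are not matched. Of 31042 probe sets 0 differed between the 2 steps at an adjusted p under 0.05 (0%; limma), with 106 more positive (0.341%) and 67 more negative (0.216%) for permethrin at an unadjusted p under 0.05. Among probe sets with a gene symbol Fos (1375043_at) had the lowest p, with 1.45 for the permethrin step and -0.22 for the deltamethrin step, a difference of 1.67 ± 0.49 (SE, unadjusted p = 0.00128 in limma). Gpd1, cytosolic glycerol-3-phosphate dehydrogenase, differed by 0.14 over the permethrin step and by 1.13 over the deltamethrin step. Dusp6 (1387024_at) differed by 0.38 and -0.07, the zinc finger factor gene Klf10 by 0.15 and -0.32, the lens crystallin gene Cryga by -0.17 (-0.11 without replicate 1 at 1 mg/kg) and 0.11, and the vasopressin gene Avp by -0.58 and 0.73. Heg1 (1373415_at) and Crh differed in the same direction over both steps, by 0.39 and 0.31, and by 0.35 and 0.21. Fkbp5 differed by 0.22 over the permethrin step and by 0.48 over the deltamethrin step.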

How the data were processed

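Frontal cortex RNA of single rats was measured on Affymetrix arrays. The authors deposited log2 values made with RMA in the program RMAExpress, a method that removes background, equalizes the distribution of the arrays and combines the probes of a set. Groups came from the sample titles. The test was limma 3.58.1 in R 4.3.3, with 1 fit of 7 group means to all 60 arrays and Benjamini-Hochberg adjustment. Exact permutation tests took all splits of 8 against 8, and their p values are unadjusted. Probe sets with several symbols (436) or none (9780) were not named. The named genes were the probe sets past the threshold, the 15 named ones of lowest p in each direction, probe sets without overlap, the genes discussed by the study, and the 5 of lowest p in each list and in the comparison with deltamethrin. Members and lists were chosen with earlier results of these data known. The fit was first tested on simulated data with known changes. Rats are separate animals, 1 array each, and their number limits the precision. Figures used matplotlib 3.10.9. Alternatives changed the arrays, covariates, scale, filter, normalization and variance prior.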

Additional observations from a re-analysis of the deposited data

Results flagged for a closer look

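For 55 probe sets, 110 groups of 8 rats were examined. In 9 of these groups, 1 rat stood apart from the other 7 by more than Dixon's critical ratio of 0.526. By chance about 1 in 20 groups would show this. Of the 9 groups 5 were at 100 mg/kg and 4 at 1 mg/kg.
At 100 mg/kg, Heg1 by 1391901_at was 8.91 in replicate 2 and 8.15 to 8.47 in the others. Sik2 was 9.18 in replicate 3 and 9.52 to 9.81 in the others. Slc40a1 by 1387130_at was 8.10 in replicate 1 and 8.42 to 8.63 in the others. Atf4 was 11.42 in replicate 1 and 11.15 to 11.25 in the others, and Kcnv1 was 10.32 in replicate 8 and 10.56 to 10.73 in the others.
At 1 mg/kg, Bhlhe40 was 7.15 in replicate 1 and 8.38 to 9.25 in the others, and Atf4 was 10.58 in replicate 2 and 10.94 to 11.26 in the others. Kcnv1 was 10.82 in replicate 3 and 10.31 to 10.51 in the others, and Camk1g by 1391229_at was 10.04 in replicate 2 and 9.11 to 9.49 in the others. The rats that stood apart in Bhlhe40, Camk1g, Sik2, Heg1 and, at 1 mg/kg, Atf4 belong to array group 2.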

How the results depend on the processing

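The count of 1 probe set at an adjusted p under 0.05 was 0 in the fit of the 16 arrays, after quantile normalization of the 16 arrays, within array group 2, within replicate numbers 1 to 3, with the replicate block and without array group 2. It was 3 with array weights (1393119_at, Heg1 by 1373415_at and 1373035_at) and 2 within replicate numbers 4 to 8 (Plekhh1 and 1383503_at), and 0 to 1 when 1 array was left out. The fits with replicate-number sets and without array group 2 were chosen after seeing the data. In the other alternatives it was 1, which within array group 1 was Plekhh1 and elsewhere 1393119_at. The cause was not tested. The replicate numbers are shared by both groups, and the deviations of same-numbered rats correlated unevenly. Of 8 pairs 5 had r over 0.1, with a range from -0.619 to 0.815. The highest r was that of number 2, with both rats in array group 2. Numbers 1 and 3, each split between the array groups, had r of -0.619 and -0.509. Numbers 4 to 8, all in array group 1, had r of 0.0122 to 0.706. The part of array group in these values was not tested. The labels do not say whether rats of the same number share anything else. With the replicate block the count was 0, and 1 of 8 rats at 100 mg/kg correlated best with its own number.
The counts at an unadjusted p under 0.05, 241 higher and 95 lower, were 501 and 261 with array group as a block, 677 and 371 with the first principal component, 420 and 155 with the replicate-number set, 622 and 514 with array weights, 153 and 43 in the 16 arrays, 165 and 43 with the replicate block, 120 and 64 after quantile normalization of the 16 arrays, 168 and 13 among probe sets above the median level, and 201 and 217 without array group 2. Within array group 1 they were 241 and 296, and within replicate numbers 4 to 8 they were 332 and 370. Leaving out 1 array gave 200 to 384 and 77 to 191. The comparison of the 2 dose steps kept a count of 0 in all 4 alternatives.
Of the 55 probe sets examined, 53 kept their direction in the 6 refits of single probe sets. The exceptions, both without array group 2, were Fos by 1371283_at, at 0.03, and Gpd1 by 1371363_at, at -0.00033. Leaving out 1 array moved Fos by 1371283_at between -0.06 and 0.04 and Nr4a3 by 1369217_at between -0.04 and 0.04, and the other 53 kept their direction. Without array group 2 the median difference turned sign in 7 of 29 lists: calcium channels (-0.0277), calcium/calmodulin-dependent kinases (-0.0155), potassium channels (-0.0237), transition metal genes (-0.0283), microglia markers (0.0393), monoamine genes (0.00863) and cytochrome P450 genes (0.00302). With probe sets of a gene averaged, potassium channels (-0.0114) and branching genes (-0.00613) turned sign, and with arrays centred branching genes did (-0.00189).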
